A study of Mus musculus with 288 samples.

Results

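The comparison was between the livers of mice that ate the same restricted ration at night either as 1 meal or spread through the night. It rested on 48 RNA-seq libraries of 288 in the series: 24 of CR-night-2h and 24 of CR-night-12h at 6 months of age, taken as every library that the labels placed in those groups at that age and matched by hour. All mice were wild-type C57BL/6J males, housed singly with a running wheel, fed purified pellets of 300 mg, and held on caloric restriction (CR) to 70% of ad libitum intake after a baseline of free feeding. In CR-night-2h the whole ration was offered when the lights went off and was eaten in under 2 h, so that most of each day was spent without food. In CR-night-12h the pellets came singly, 90 min apart, over the 12 h of the night. Livers were collected every 4 h from hour 0 to hour 44, with replicates A and B at each hour and each mouse sampled once. Hours 24 to 44 repeated hours 0 to 20 one day later, so each of the 6 clock hours (hour modulo 24) held 4 libraries per group. The labels describe a light and dark cycle, the headings of the tables and the methods describe constant darkness at collection, and what hour 0 marks was not stated. The hours are therefore used as labelled and are not tied to the meal. The 24 libraries of the ad libitum (AL) mice at 6 months were set beside both groups as a reference.

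Liver genes follow both a local clock and the feeding rhythm. In the clock, the activators BMAL1 (from Arntl), CLOCK and NPAS2 drive the Per, Cry and Nr1d genes, whose products repress them in turn, and outputs such as Dbp carry the rhythm to metabolic genes. Food adds signals of its own: insulin and SREBP factors raise lipid and cholesterol synthesis after a meal, PPARA raises fatty acid oxidation in the fast, and body temperature, which rises with feeding and activity, drives heat shock genes through HSF1.

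Total counts ran from 3.63e+06 to 8.98e+06 in CR-night-2h (median 5.04e+06), from 2.8e+06 to 1.18e+07 in CR-night-12h (median 4.91e+06) and from 6.05e+06 to 1.87e+07 in AL. Hepatocyte markers summed to between 9.05e+04 and 1.63e+05 CPM (counts scaled to the size of each library) in the 48 libraries, and no marker of B and plasma cells, neutrophils or adipocytes passed the filter on low counts. Of 21869 genes in the tables, 11622 passed it and were tested. In bulk liver, fewer cells of a type and less RNA per cell cannot be told apart.

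In CR-night-2h, 4 of the 24 libraries stood apart, and the results were also computed without them. Those labelled hour 8 A, hour 12 A and hour 24 B (8A, 12A and 24B below) had cell-cycle genes summing to 560, 283 and 514 CPM, where the median of their group was 57.8 CPM and CR-night-12h ranged from 34.4 to 84 CPM. Stellate cell markers in them summed to 770, 688 and 909 CPM (group median 364, CR-night-12h 280 to 419) and Kupffer cell markers to 451, 320 and 477 CPM (group median 210, CR-night-12h 124 to 298). The library labelled hour 12 B (12B) differed from its hour in clock genes. When each library was given the clock time at which 15 clock genes best matched their AL curves, 12B read 5.6 h later than its label, whereas the AL libraries, read against curves fitted to themselves, lay within −0.8 to 1.2 h of theirs. Its label was kept, and whether it belongs to hour 12 could not be told, so values at clock hour 12 that change without it carry that doubt. On the same reading 8A lay at −2.4 h from its label, also outside the AL range, 12A at 0.1 h and 24B at −0.3 h. The other libraries of CR-night-2h at clock hour 8 lay at 0.8 to 1.3 h.

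Clock genes ran ahead in CR-night-2h. By the same measure the libraries of CR-night-12h read −0.85 h from their labels at the median (−2.2 to 0.3 h, n = 24) and those of CR-night-2h 0.8 h (−2.4 to 5.6 h, n = 24), with AL between them at −0.1 h. Whether a gene's daily rhythm differed was tested with cosine and sine terms of 24 h in edgeR's quasi-likelihood model, and p-values were adjusted over all genes tested by Benjamini-Hochberg. Of 15 core clock genes, 6 had a rhythm that differed at an adjusted p under 0.05, against 3.25% of all genes tested (378 genes). All 6 peaked earlier in CR-night-2h: Arntl (by 1.92 ± 0.37 h, adjusted p = 0.0086), Clock (1.60 ± 0.56 h, 0.038), Nr1d1 (1.98 ± 0.43 h, 0.0091), Nr1d2 (2.09 ± 0.41 h, 0.0058), Per3 (1.31 ± 0.50 h, 0.049) and Bhlhe41 (3.56 ± 0.88 h, 0.0083), where the shift and its standard error come from limma-voom. Without 12B 4 of the 15 were called, and without all 4 libraries 10. Shifts of other repressors, activators and modulators of the loop did not pass: Cry1 (−1.83 ± 0.53 h, adjusted p of the rhythm 0.067), Npas2 (−1.26 ± 0.57 h, 0.068), Per2 (−0.81 ± 0.59 h, 0.10), Per1 (−1.21 ± 0.68 h, 0.46), and Cry2, Bhlhe40 and Ciart at between −1.39 and −0.43 h with adjusted p of at least 0.37. Rora did not cycle in either group.

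Among the activators, Arntl (GRCm38 chr7:113207465-113314126) showed the shift as an early rise. At clock hour 12 the 4 libraries of CR-night-2h (in the order A and B of the first day, A and B of the second, as in all such lists) held 1.23, 28.8, 6.94 and 1.41 CPM of Arntl, those of CR-night-12h 0.307, 1.66, 0.782 and 0.604 CPM, and AL 1.4, 2.1, 2.6 and 1.41 CPM. The ranges overlapped, and the high value of CR-night-2h was 12B. The difference was 3.62 ± 0.75 on the log2 scale (SE, adjusted p = 0.0041) and 1.87 without 12B (adjusted p = 0.11). At clock hour 16 Arntl stood at 24.2, 37.8, 15.9 and 29.8 CPM in CR-night-2h against 13.4, 9.73, 10.4 and 12.8 CPM in CR-night-12h, ranges that did not overlap, and that difference did not pass the test with all 48 libraries.

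Clock, which encodes the partner of BMAL1, separated fully at clock hour 12. It stood at 24.7, 52.3, 41 and 27 CPM in CR-night-2h against 13.3, 17.5, 20.1 and 13.8 CPM in CR-night-12h, higher by 1.17 ± 0.18 on the log2 scale (adjusted p = 8.8e-05) and by 0.93 without 12B (adjusted p = 0.00074). Npas2, the other partner of BMAL1, was higher at clock hour 20 by 2.03 ± 0.46 (adjusted p = 0.036). Its levels there overlapped, at 28.6, 37.9, 6.11 and 16.3 CPM in CR-night-2h and 2.01, 7.4, 7.76 and 5.36 CPM in CR-night-12h.

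The repressors and the output factor Dbp showed the same order of events. Nr1d2, which encodes the repressor REV-ERB beta, was already up at clock hour 0 in CR-night-2h, with 22.9, 26.3, 40.3 and 15.9 CPM against 6.95, 10.1, 9.3 and 6.54 CPM (log2 difference 1.68 ± 0.34, adjusted p = 0.027). Dbp, an activator of D-box genes, was higher at clock hour 4, with 66.1, 25.4, 48.8 and 95 CPM against 11.7, 3.23, 12.3 and 10.6 CPM (2.61 ± 0.51, adjusted p = 0.031). At clock hour 12 it had fallen behind, with 64.1, 5.16, 39.8 and 72.1 CPM against 222, 120, 184 and 158 CPM (−1.91 ± 0.46, adjusted p = 0.012). None of these 3 pairs of ranges overlapped, and the range of Dbp over the day was alike in both groups, with a fitted difference between peak and trough of 6.85 in CR-night-2h and 6.83 in CR-night-12h on the log2 scale.

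**Figure D1:**
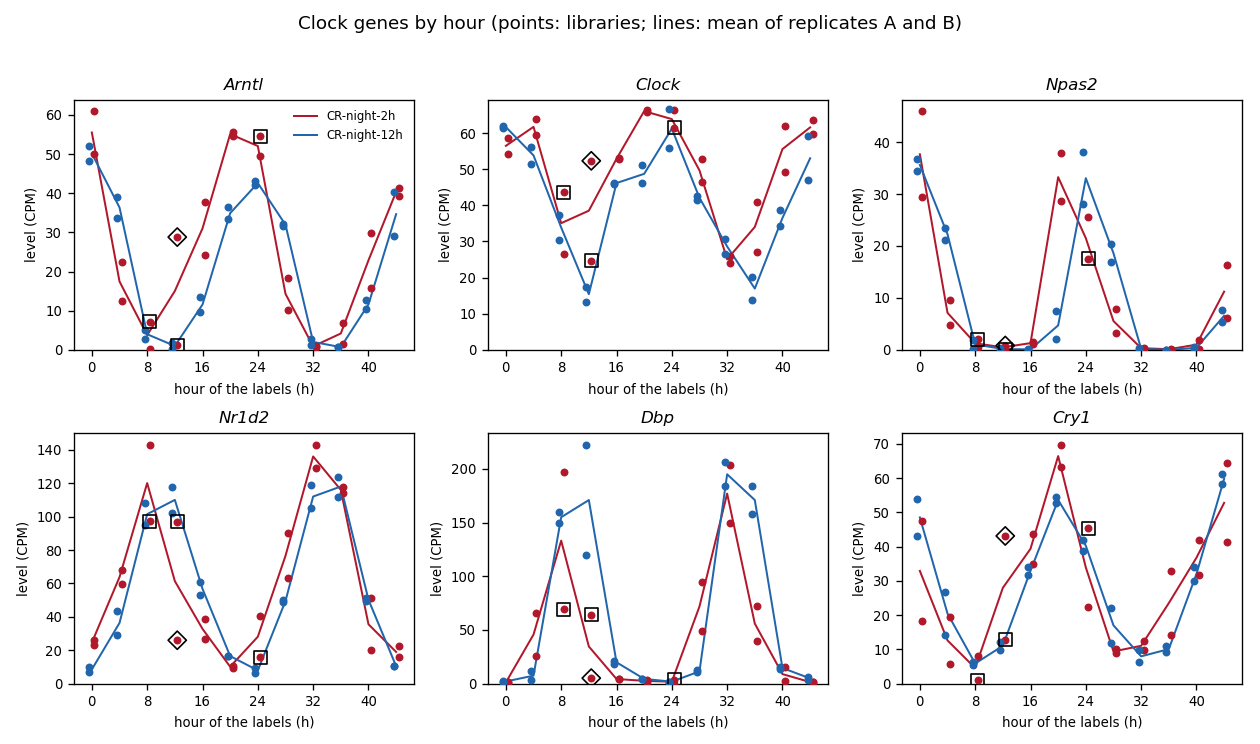
Level of 6 clock genes (CPM, vertical axis) against the labelled hour (horizontal axis) in CR-night-2h (red) and CR-night-12h (blue), with lines through the mean of replicates A and B and single libraries as points, where squares mark 8A, 12A and 24B and the diamond marks 12B. Arntl, Clock and Nr1d2 rise and Dbp rises and falls earlier in CR-night-2h, and the diamond lies at the top of its hour for Arntl at 28.8 CPM.

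Cry1, a repressor of the clock, and Nfil3, a repressor that competes with Dbp, were both higher at clock hour 12. Cry1 stood at 12.8, 43.1, 32.9 and 14.1 CPM against 9.82, 12.3, 9.18 and 11 CPM (1.27 ± 0.37, adjusted p = 0.041), a call that ended without 12B (0.87, adjusted p = 0.18). Nfil3 stood at 15.4, 29.5, 41.9 and 19.5 CPM against 3.07, 13.3, 7.62 and 3.19 CPM (2.05 ± 0.35, adjusted p = 0.00062), and its rhythm differed too, with a peak earlier by 2.03 ± 0.47 h (adjusted p = 0.019). Their promoters are shown because they carry 2 kinds of clock element. In each, the 250 bases before the start are written in the direction of the gene (RefSeq, GRCm38.p6), with the element in capitals: the E-box CACGTG in Cry1 (chr10:85185055-85185304, minus strand) and, in Nfil3 (chr13:52981040-52981289, minus strand), TGACCTA, the reverse complement of the ROR element core TAGGTCA.
Cry1: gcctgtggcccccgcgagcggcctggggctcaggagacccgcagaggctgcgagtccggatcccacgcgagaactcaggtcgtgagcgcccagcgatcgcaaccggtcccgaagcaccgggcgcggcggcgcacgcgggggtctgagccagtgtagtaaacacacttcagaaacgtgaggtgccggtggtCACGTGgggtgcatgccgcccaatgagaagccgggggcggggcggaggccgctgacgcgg
Nfil3: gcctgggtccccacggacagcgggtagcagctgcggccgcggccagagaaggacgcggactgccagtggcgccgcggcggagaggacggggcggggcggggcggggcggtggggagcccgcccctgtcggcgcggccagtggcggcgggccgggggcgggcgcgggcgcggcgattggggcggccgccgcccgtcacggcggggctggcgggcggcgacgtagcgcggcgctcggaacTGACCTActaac
Both strands were searched in windows from 250 bases before to 50 bases after the start, which matched 12 of the 15 core clock genes. The E-box was found in 4 of them (33.3%), in 11.9% of the 9025 matched genes tested and in 8.09% of all 27025 promoters. The ROR core was found in 1 of the 12, and in 2.97% of all promoters. In Arntl, Clock, Npas2, Nr1d1, Nr1d2 and Dbp the 250 bases before the start held none of the E-box, ROR core or D-box (TTATGTAA) letters.

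The advance was shared far beyond the clock. Genes were called cycling at an adjusted p under 0.05 and a fitted difference between peak and trough over 0.3 on the log2 scale, which gave 4534 genes (39%) in CR-night-2h and 3852 (33.1%) in CR-night-12h. Of these, 2701 cycled in both, which is 59.57% of the first list and 70.12% of the second. Over the 2701, the peak in CR-night-2h came 2.02 h earlier at the median (quartiles −3.10 and −1.03 h), and 2437 genes (90.23%) peaked earlier in CR-night-2h. For the 14 core clock genes among them the median was −1.58 h. Genes are not replicates, so these medians carry no test. Without the 4 libraries the median was −2.03 h.

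**Figure D2:**
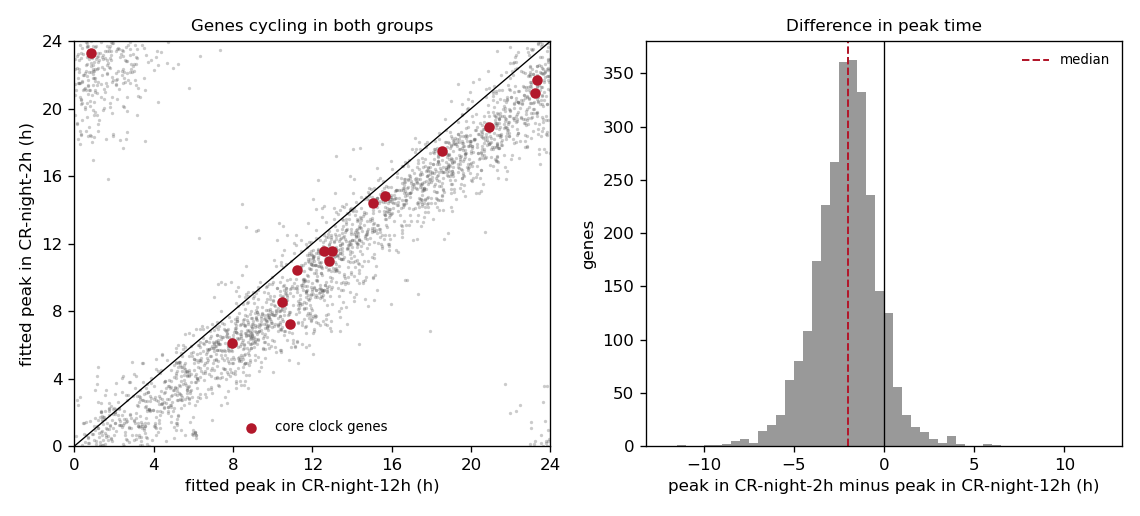
Left, fitted peak hour in CR-night-2h (vertical axis, h) against that in CR-night-12h (horizontal axis, h) for the 2701 genes cycling in both, with core clock genes in red; right, number of genes by the difference in peak hour. Most points lie below the diagonal (those at the upper left are peaks on either side of hour 0), 90.23% of the genes have a difference below 0 h, and the median is −2.02 h.

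Amplitudes depended on the libraries used. The median ratio of amplitudes, CR-night-2h over CR-night-12h, was 1.009 over the 2701 genes and 1.156 without the 4 libraries. With all libraries no gene had a larger amplitude in CR-night-2h at an adjusted p under 0.05 (0%; limma-voom; 413 at an unadjusted p under 0.05), and 1 had a smaller one (0.0086%; 250 unadjusted). Without 8A, 12A and 24B there were 7 larger and 2 smaller, and without the 4 libraries 31 and 3. The gene called with all libraries was Sgk2, a serine and threonine kinase, with a fitted difference between peak and trough of 0.95 in CR-night-2h and 2.05 in CR-night-12h on the log2 scale. Among the clock genes Arntl went from 4.12 to 5.73 and Per2 from 4.42 to 2.86 between CR-night-2h and CR-night-12h, and neither passed.

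Some metabolic genes shifted by more than the clock. In cholesterol synthesis and SREBP2 signalling, 11 of 25 genes had a rhythm that differed, against 3.25% of all genes tested. The median shift of its genes cycling in both groups was −4.97 h. Hmgcs1, which makes the precursor of mevalonate, peaked earlier by 3.33 ± 0.73 h (adjusted p = 0.022). Dhcr7, the last enzyme of the pathway, shifted by 4.60 ± 0.91 h (0.017), Lss, which closes the sterol rings, by 6.64 ± 1.16 h (0.011), and Insig1, which retains SREBP in the endoplasmic reticulum, by 8.93 ± 1.27 h (0.0056). In Hsd17b7 the peaks lay nearly opposite, 10.87 ± 1.91 h later in CR-night-2h when wrapped to the nearest day (0.0071).

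Chaperones of the endoplasmic reticulum moved in the same way. In the unfolded protein response list 8 of 19 genes had a rhythm that differed, against 3.25% of all genes tested. The median shift was −5.41 h for its genes cycling in both. Hspa5, which encodes BiP, peaked earlier by 6.26 ± 1.33 h (adjusted p = 0.019), Hyou1 by 5.96 ± 1.02 h (0.0083) and Creld2 by 5.31 ± 1.15 h (0.005). Manf, Dnajb11, Pdia4, Calr and Hsp90b1 made up the rest, by between 4.40 and 9.40 h.

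With all 48 libraries, fewer genes of glucose and fat metabolism had a rhythm that differed. The counts were 1 of 12 in gluconeogenesis, 2 of 10 in glycogen metabolism, 2 of 18 in lipogenesis and 3 of 25 fasting and PPARA targets. The share over all genes tested was 3.25%. Without the 4 libraries the counts were 2, 6, 11 and 4 in the same order, so the contrast ended for glycogen and lipogenesis. Cholesterol synthesis then had 14 of 25, the unfolded protein response 9 of 19 and all genes tested 1127 of 11716. Gpam, which starts glycerolipid synthesis, peaked 7.81 ± 1.12 h earlier (adjusted p = 0.0043), and Pck1, the enzyme that commits to gluconeogenesis, 3.96 ± 0.92 h earlier (0.022). Angptl4, an inhibitor of lipoprotein lipase induced by fasting, shifted by 3.73 ± 0.75 h (0.0048). Gys2, liver glycogen synthase, shifted by 1.44 ± 0.35 h (0.022), close to the clock genes. Socs2, a feedback inhibitor, was the 1 of 13 growth hormone signalling genes called and shifted by 6.06 ± 0.99 h (0.0061), and Cs, citrate synthase, the 1 of 16 respiration genes, by 5.74 ± 1.06 h (0.011).

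With all 48 libraries the groups differed most at clock hour 12. There, 260 genes were higher in CR-night-2h (2.24% of genes tested) and 128 lower (1.1%), at an adjusted p under 0.05 and a fold of at least 1.5. At clock hour 0 there were 22 higher (0.189%) and 15 lower (0.129%), at clock hour 4 2 (0.0172%) and 2 (0.0172%), at clock hour 8 14 (0.12%) and 20 (0.172%), at clock hour 16 30 (0.258%) and 23 (0.198%), and at clock hour 20 13 (0.112%) and 33 (0.284%). The order did not hold without replicate A, where 8 genes differed at clock hour 12 and 28 at clock hour 20. CR-night-2h then kept 12B and the library of hour 36 B at clock hour 12. From hours 0 to 20 alone, with both replicates, 2 genes differed at clock hour 12 and at most 1 at any other. In 120 genes (1.03%) the difference varied with clock hour. Without the 4 libraries 378 were higher and 253 lower at clock hour 12, of which 172 and 80 were among those called with all libraries, and the other hours gained most, from 4 genes to 104 at clock hour 4 and from 34 to 200 at clock hour 8. The number whose difference varied with clock hour then rose to 953, with 119 of the 120 among them.

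**Figure D3:**
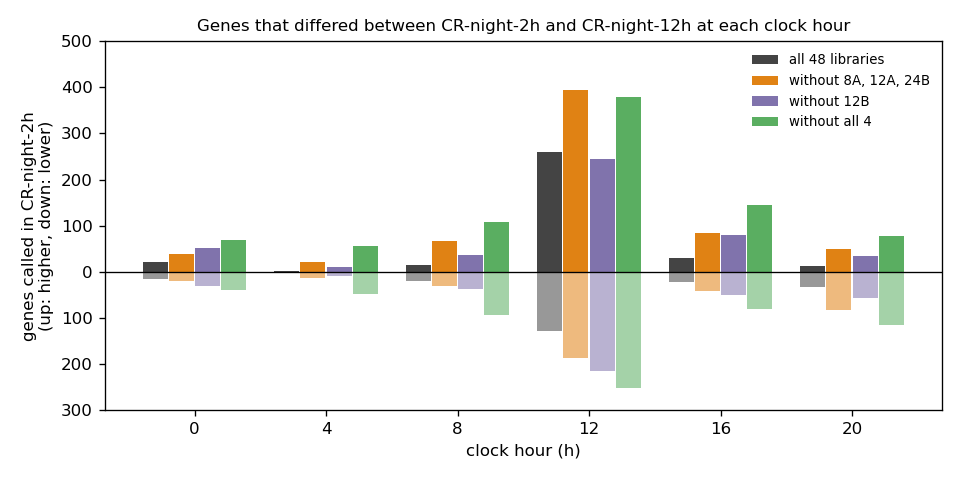
Number of genes higher (above 0) and lower (below 0) in CR-night-2h at each clock hour (horizontal axis, h), with all 48 libraries, without 8A, 12A and 24B, without 12B, and without all 4. Clock hour 12 holds the most genes in each of these 4 sets, with between 245 and 395 higher and between 128 and 253 lower.

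At clock hour 12 genes of the fasted liver were higher in CR-night-2h. Of 25 fasting and PPARA target genes 9 were called higher and none lower, with a median log2 difference of 0.63 against 0.025 over all genes tested, and without 12B 11 were. The largest belonged to Pdk4 (chr6:5483351-5496309), the kinase that shuts pyruvate out of the citric acid cycle. It stood at 50.3, 24, 361 and 107 CPM in CR-night-2h against 4.75, 6.03, 3.32 and 5.35 CPM in CR-night-12h, and between 2.1 and 3.96 CPM in AL. All 4 libraries of CR-night-2h lay above all 4 of CR-night-12h, by 4.77 ± 0.56 on the log2 scale (adjusted p = 3.8e-06), and its difference varied with clock hour (adjusted p = 0.0014). At clock hour 8, Pdk4 was 27, 4.69, 4.52 and 9.69 CPM in CR-night-2h against 4.83 to 5.44 CPM in CR-night-12h, which overlapped.

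Acot1 and Acot2, thioesterases that release fatty acids from coenzyme A, were higher at that hour by 2.84 and 2.78, and Vnn1, a pantetheinase under PPARA, by 1.39. Slc25a20, the mitochondrial carnitine carrier, was higher by 0.59. Acot2 stood at 77.3, 7.16, 65 and 28 CPM against 9.82, 4.16, 4.49 and 6.82 CPM, where only 12B fell within the range of CR-night-12h.

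Of 14 insulin and FOXO targets 3 were higher at the same hour, while the list median was −0.056, below the 0.025 of all genes tested. Igfbp1, a secreted binder of IGF1 that insulin represses, stood at 446, 87.8, 713 and 269 CPM against 66.9, 67, 41.6 and 40.1 CPM, with AL at 20.1 to 67 CPM (2.82 ± 0.62, adjusted p = 0.0064). G6pc, which releases free glucose, stood at 557, 213, 1040 and 559 CPM against 115, 201, 122 and 195 CPM (1.90 ± 0.45, adjusted p = 0.012). In both genes the ranges were separate and the lowest library of CR-night-2h was 12B. AL stood apart from that pattern for G6pc, at 454 to 591 CPM. Irs1, an insulin receptor substrate, was higher by 0.73 ± 0.19 (adjusted p = 0.018) and Sik1, a kinase that restrains gluconeogenesis, by 1.33 ± 0.38 (0.037). Of 12 gluconeogenesis genes, G6pc and Sik1 were the 2 that were called, and Pck1 had a difference of 0.28 at that hour.

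Single genes of other kinds differed widely at clock hour 12. Gadd45b, a stress-induced gene, stood at 3.08, 2.83, 18.5 and 4.43 CPM against 0.307, 0, 0.782 and 0.345 CPM, and Cdkn1a, an inhibitor of cyclin-dependent kinases, at 21.1, 6.33, 20.6 and 6.05 CPM against 1.07, 2.29, 1.56 and 1.04 CPM. Neither pair of ranges overlapped. Cdkn1a was the 1 of 12 cell-cycle genes called at that hour. Fabp5, a fatty acid binding protein, was lower, at 11.2, 65, 25.7 and 21 CPM against 215, 146, 147 and 215 CPM (log2 difference −2.56). Slc34a2, a phosphate carrier, was called higher by 4.73, but its level in CR-night-2h was 9 CPM in 12B and at most 0.694 CPM in the other 3 libraries.

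Heat shock genes were higher at clock hour 12 as well. Of 17 genes in the heat shock and temperature list 11 were called higher and none lower, with a median difference of 0.90 on the log2 scale against 0.025 over all genes tested. Without 12B, 4 were called (Hsph1, Hsp90aa1, Hspb1 and Hspa1b) and the median was 0.34. Hsph1 (chr5:149614287-149636376), a partner of HSP70, stood at 62.3, 190, 80.3 and 48.2 CPM against 8.59, 31.4, 17.2 and 13.2 CPM, and in AL at 24.5, 46.4, 76.3 and 43.9 CPM. Every library of CR-night-2h lay above those of CR-night-12h, by 2.47 ± 0.37 with 12B (adjusted p = 0.00014) and by 1.88 without it (0.00075). By clock hour 16 Hsph1 had reached 171, 205, 183 and 187 CPM in CR-night-2h and 149, 148, 130 and 147 CPM in CR-night-12h, and its peak was earlier by 2.07 ± 0.44 h (adjusted p = 0.0083).

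Hsp90aa1, the inducible HSP90, stood at 80.1, 382, 85.4 and 55 CPM against 26.5, 37.2, 26.8 and 30.8 CPM (2.31 ± 0.39, adjusted p = 0.00062, and 1.27 without 12B, adjusted p = 0.005). Hspa1b, an inducible HSP70, stood at 14.7, 24.2, 7.18 and 6.45 CPM against 0.46, 2.7, 1.37 and 0.69 CPM (3.49 ± 0.60, adjusted p = 0.00063), and its near-identical neighbour Hspa1a can share its reads. Hspb1, a small heat shock protein, stood at 5.18, 19, 8.56 and 4.03 CPM against 1.23, 3.33, 1.37 and 2.24 CPM (2.17 ± 0.44, adjusted p = 0.0034). In these 3 genes too the ranges of the groups were separate and 12B was the highest library. The other 7 called genes, Hspa8, Hspa4l, Chordc1, Stip1, Dnajb1, Dnaja1 and Hsp90ab1, were higher by between 0.70 and 1.38.

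The promoters of 3 of these genes are shown because they share the heat shock element, a pair of inverted repeats. The 250 bases before the start are written in the direction of the gene (RefSeq, GRCm38.p6) at chr5:149636337-149636586 (Hsph1, minus strand), chr17:34959239-34959488 (Hspa1b, minus strand) and chr5:135887669-135887918 (Hspb1, plus strand), with the inward form GAANNTTC or the outward form TTCNNGAA in capitals.
Hsph1: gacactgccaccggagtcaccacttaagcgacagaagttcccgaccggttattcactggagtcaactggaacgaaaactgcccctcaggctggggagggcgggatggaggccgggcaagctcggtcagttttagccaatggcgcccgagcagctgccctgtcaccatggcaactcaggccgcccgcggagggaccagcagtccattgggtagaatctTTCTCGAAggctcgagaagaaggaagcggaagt
Hspa1b: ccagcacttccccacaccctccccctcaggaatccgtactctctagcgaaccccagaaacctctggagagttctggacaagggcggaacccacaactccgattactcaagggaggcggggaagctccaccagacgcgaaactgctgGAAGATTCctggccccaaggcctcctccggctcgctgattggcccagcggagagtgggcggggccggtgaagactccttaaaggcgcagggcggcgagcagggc
Hspb1: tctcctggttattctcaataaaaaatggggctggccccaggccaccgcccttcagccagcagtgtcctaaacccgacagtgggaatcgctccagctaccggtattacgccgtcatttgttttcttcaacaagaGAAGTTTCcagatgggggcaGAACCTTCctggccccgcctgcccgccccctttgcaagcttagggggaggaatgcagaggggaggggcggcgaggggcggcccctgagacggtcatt
Windows from 250 bases before to 50 bases after the start matched 13 of 18 list members, and 9 of them (69.2%) held either form, against 14.2% of the genes tested and 17% of all promoters. Among the 8 matched members that were higher at clock hour 12 there were 5 (62.5%). The 2 forms can overlap and both read the same on either strand.

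Some genes of cholesterol synthesis were lower in CR-night-2h at clock hours 8 and 12. Dhcr7 at clock hour 8 stood at 52.8, 105, 49.7 and 92.9 CPM against 131, 136, 177 and 183 CPM (log2 difference −1.06 ± 0.23, adjusted p = 0.039), and at clock hour 12 at 48.1, 95.6, 35 and 54.6 CPM against 108, 110, 87.5 and 111 CPM (−0.83 ± 0.23, adjusted p = 0.031). The ranges were separate at the first hour and overlapped at the next through 12B. Mvk, mevalonate kinase, was lower at clock hour 12 (−1.10 ± 0.24, adjusted p = 0.006), with 8.63, 8, 3.47 and 8.26 CPM against 19.2, 13.1, 17.6 and 12.4 CPM. Over the 25 genes of the list the median difference was −0.75 at clock hour 4, −0.82 at clock hour 8, −0.63 at clock hour 12, 0.11 at clock hour 16 and 0.12 at clock hour 20. Of the 25, 3 were called lower at clock hour 12, and 9 without 12B.

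Gpam was higher at clock hour 16. It stood at 626, 984, 707 and 825 CPM in CR-night-2h against 218, 256, 200 and 119 CPM in CR-night-12h and 244 to 576 CPM in AL (1.99 ± 0.47, adjusted p = 0.042), and at clock hour 4 the order was reversed, with 152, 229, 295 and 264 CPM against 699, 528, 552 and 399 CPM. The ranges were separate at both hours, and the difference at clock hour 4 (−1.21) passed the test only without the 4 libraries (adjusted p = 0.034). Pnpla3, a lipase and acyltransferase of lipid droplets, is the plainest case of 12B standing apart: at clock hour 12 it was at 0.617, 589, 2.55 and 4.84 CPM. At clock hour 16 Pnpla3 had reached 371, 610, 228 and 502 CPM against 68.8, 163, 114 and 59.3 CPM in CR-night-12h. The lipogenesis list of 18 genes had 1 called lower and none higher at clock hour 12, with a median of −0.12. Without 12B 6 were lower and none higher, with a median of −1.31. Without the 4 libraries 8 were lower and none higher, with a median of −1.21.

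Of 19 genes of the unfolded protein response, Creld2 and Hyou1 were higher at clock hour 12 and Xbp1 was lower. Creld2, a foldase of the endoplasmic reticulum, stood at 16, 31, 19.9 and 16.9 CPM against 5.67, 4.37, 7.82 and 5.87 CPM (1.82 ± 0.38, adjusted p = 0.0046). Hyou1 stood at 90, 240, 128 and 81.2 CPM against 61, 68.7, 68 and 57 CPM (1.08 ± 0.31, adjusted p = 0.033), a call that ended without 12B (0.64, adjusted p = 0.20). Both pairs of ranges were separate.

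**Figure D4:**
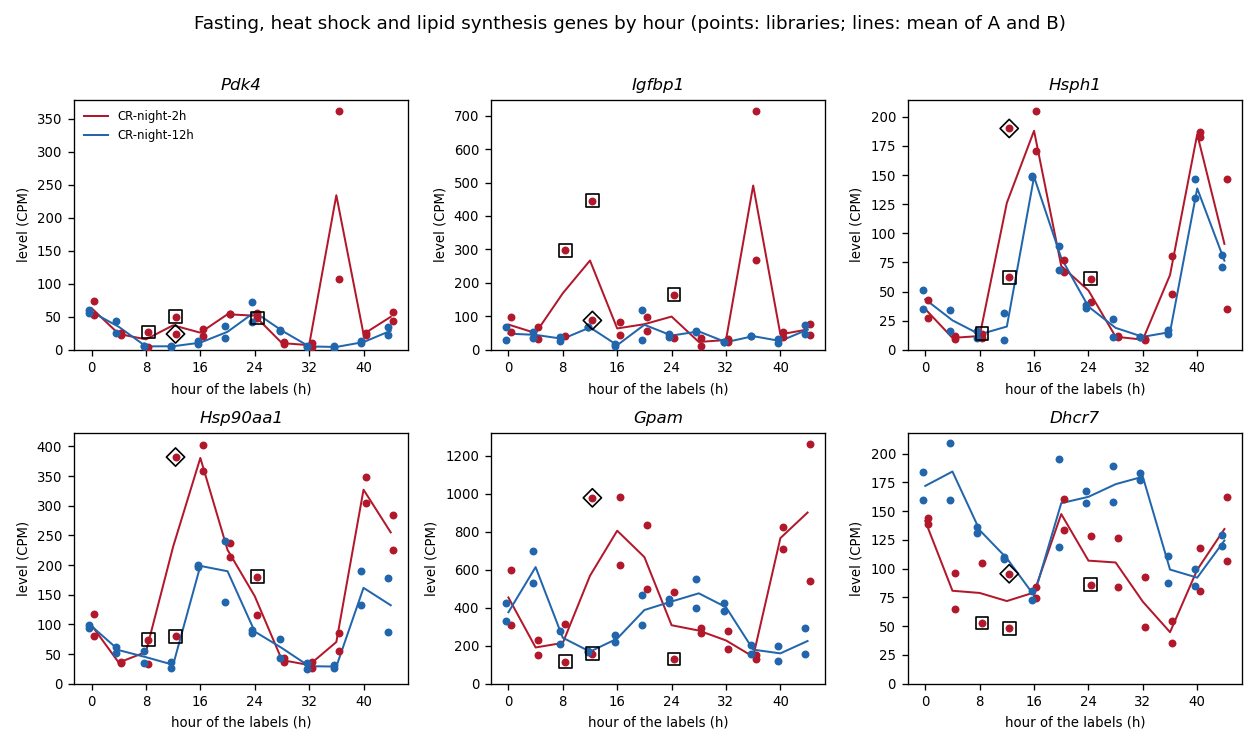
Level of Pdk4, Igfbp1, Hsph1, Hsp90aa1, Gpam and Dhcr7 (CPM, vertical axis) against the labelled hour (horizontal axis) in both CR groups, with lines through the mean of replicates A and B and single libraries as points (squares 8A, 12A and 24B, diamond 12B). Pdk4 and Igfbp1 have maxima of 361 and 713 CPM at hour 36 in CR-night-2h, and Gpam is above CR-night-12h at hours 16 and 40 and below it at hours 4 and 28.

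A few genes marked the remaining hours. Tfrc, the transferrin receptor, was higher at clock hour 20, at 50.3, 60.8, 48.4 and 64.2 CPM against 21.2, 14.3, 11.2 and 20.4 CPM (1.74 ± 0.28, adjusted p = 0.0027), with separate ranges and AL at 15.7 to 37.1 CPM. Hamp, which encodes hepcidin, the hormone that blocks iron export, was lower at clock hour 12, at 998, 745, 500 and 384 CPM against 2260, 2330, 1420 and 2080 CPM (−1.62 ± 0.37, adjusted p = 0.0089). Of 12 iron genes, these were the 2 called at any clock hour or over the day, and Tfrc was also higher at clock hour 0 (1.17, adjusted p = 0.041). Nceh1, a cholesteryl ester hydrolase, was higher at clock hour 4, at 43.3, 31, 34 and 30.1 CPM against 19.9, 13.8, 19.6 and 14.5 CPM. Serpinb1a, a protease inhibitor, was lower at clock hour 0, at 1.7, 3.06, 2.55 and 0.768 CPM against 9.61, 7.21, 9.91 and 5.81 CPM. Both pairs were separate.

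Averaged over the day, 175 genes were higher in CR-night-2h (1.51% of genes tested) and 71 lower (0.611%), and without the 4 libraries 90 and 76, of which 66 and 51 were shared. Genes of fatty acid oxidation were among the higher ones. Of the 25 fasting and PPARA targets 10 were higher and none lower, with a median difference of 0.46 against 0.016 over all genes tested, and 9 were without the 4 libraries. Cyp4a14 (chr4:115486200-115496142), a fatty acid omega-hydroxylase under PPARA, ran from 310 to 3760 CPM in CR-night-2h (median 1420), from 16.9 to 741 CPM in CR-night-12h (median 352) and from 4.1 to 252 CPM in AL (median 40.4). In 22 of the 24 libraries of CR-night-2h it lay above every library of CR-night-12h, and the difference was 2.13 ± 0.26 on the log2 scale (adjusted p = 1e-06).

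Cyp4a10, its close relative, ran from 230 to 1440 CPM (median 618) in CR-night-2h and from 39.7 to 401 CPM (median 204) in CR-night-12h (1.67 ± 0.18, adjusted p = 1.8e-07). Ehhadh, an enzyme of peroxisomal beta-oxidation, ran from 232 to 783 CPM (median 361) against 148 to 272 CPM (median 218), with AL at 139 to 311 CPM (0.91 ± 0.09, adjusted p = 5.1e-09). Here 19 libraries of CR-night-2h for Cyp4a10 and 22 for Ehhadh lay above all of CR-night-12h. At single clock hours the differences ran from 1.45 to 2.55 for Cyp4a14, which passed at clock hour 12 alone (adjusted p = 0.021, and at least 0.065 at the others), and from 0.45 to 1.26 for Ehhadh, which passed at clock hours 8, 12 and 20. Vnn1 was higher by 0.99 ± 0.14 and Acot2 by 1.80 ± 0.33 over the day. Cyp4a12a and Cyp4a12b, members of the same family with higher levels in males, were lower by 2.08 and 1.91, and reads of the family can be shared.

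Genes of fat uptake and droplets were also higher. Of 17 lipid droplet and PPARG targets 5 were called, against 1.51% of all genes tested, with a median of 0.24. Cd36, a fatty acid transporter, ran from 22.8 to 182 CPM (median 38.7) against 12.8 to 42.2 CPM (median 22.7), with AL at 5.42 to 32.5 CPM (1.15 ± 0.20, adjusted p = 0.00012). Gpat3, an enzyme of triglyceride synthesis, was higher by 1.74 ± 0.33 (adjusted p = 0.0004) and Pparg by 0.59. Cidec, a droplet protein, and Lpl, lipoprotein lipase, were called with all libraries (2.09 and 1.08) and not without the 4 (0.79, adjusted p = 0.11, and 0.33, adjusted p = 0.10), and 3 of the 17 were called then.

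Of 24 xenobiotic genes 3 were higher over the day, against 1.51% of all genes tested. Cyp3a11, the main drug-metabolizing CYP3A, ran from 580 to 4260 CPM (median 1110) against 410 to 1270 CPM (median 632) and 216 to 1150 CPM in AL (0.96 ± 0.16, adjusted p = 8.8e-05). Gsta2, a glutathione transferase, was higher by 1.68 ± 0.32 and Gstm3 by 0.67. Orm2, an acute phase protein, was the 1 called of 17 acute phase genes (1.54 ± 0.33, adjusted p = 0.0014).

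Male-biased liver genes were lower over the day in CR-night-2h. Such genes follow the pulses of growth hormone, and all mice here were male. Of 16 male-biased genes 9 were lower in CR-night-2h and none higher, with a median difference of −1.52 against 0.016 over all genes tested, and 6 were without the 4 libraries. At single clock hours none was called. The list median was 0.057 at clock hour 0, −0.29 at clock hour 16, −2.56 at clock hour 8 and −2.64 at clock hour 20. Serpina1e (chr12:103946931-103958975), an alpha-1-antitrypsin, ran from 5.18 to 1550 CPM (median 43.6) in CR-night-2h, from 15.6 to 7220 CPM (median 289) in CR-night-12h and from 830 to 1e+04 CPM (median 3670) in AL (−2.62 ± 0.59, adjusted p = 0.0022). Mup20, a major urinary protein, had medians of 127, 629 and 2200 CPM in the same order (−1.94 ± 0.46, adjusted p = 0.0032). Hsd3b5, a male steroid dehydrogenase, had medians of 0.959, 24.7 and 187 CPM (−2.60 ± 0.75, adjusted p = 0.013). The CR groups overlapped widely in all 3 genes, and Mup and Serpina1 genes can share reads with close copies.

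Of 14 female-biased genes 3 were higher, against 1.51% of all genes tested, and none lower, with a median of 0.80. The medians over the day were −1.31 for the male-biased and 0.70 for the female-biased genes without 8A, 12A and 24B. No female-biased gene was called at a single clock hour, and their median ran from −0.30 at clock hour 0 to 2.33 at clock hour 8. A1bg, a plasma protein at higher levels in females, ran from 0 to 78.3 CPM (median 4.62) in CR-night-2h, from 0 to 3.63 CPM (median 0.291) in CR-night-12h and from 0 to 0.499 CPM in AL (4.14 ± 0.69, adjusted p = 8.1e-05, and 2.87 without the 4 libraries, adjusted p = 0.021). Acot3, a peroxisomal thioesterase, was higher by 1.14, and Prom1 by 1.34, which fell to 0.18 without the 4 libraries (adjusted p = 0.63). Cyp2a22, which is in neither list, was higher by 1.89 ± 0.43, at 2.21 to 172 CPM (median 45.5) against 0.641 to 67.5 CPM (median 6.86). Adgrf1, an adhesion G protein-coupled receptor, was lower, at 0.465 to 14.4 CPM (median 1.85) against 3.08 to 45.7 CPM (median 11.3) and 8.73 to 44 CPM in AL (−1.94 ± 0.29, adjusted p = 1.6e-05), and 17 libraries of CR-night-2h lay below all of CR-night-12h.

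**Figure D5:**
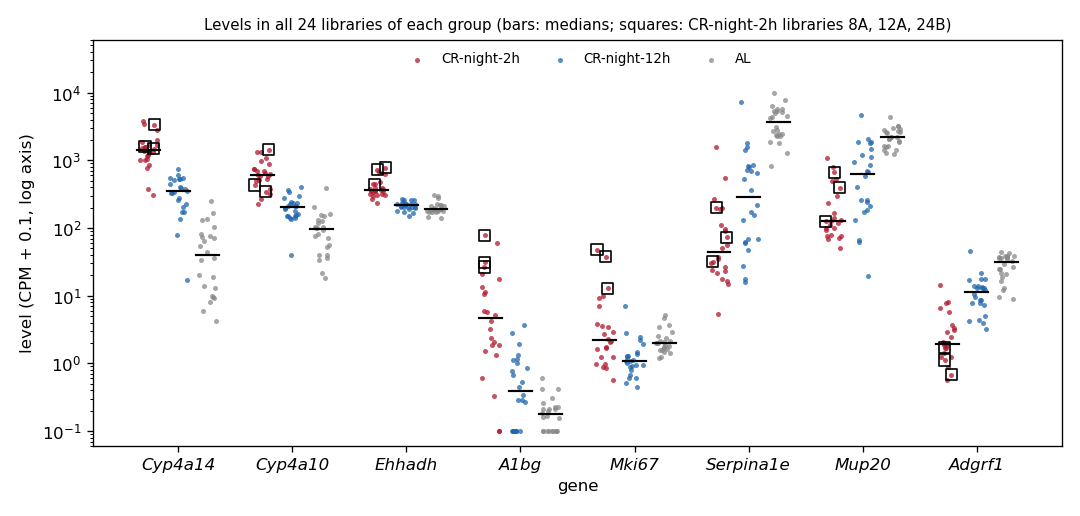
Level of 8 genes (CPM + 0.1, log axis) in the 24 libraries of CR-night-2h, CR-night-12h and AL, with a bar at the median of each group. Cyp4a14 steps down from a median of 1420 CPM through 352 CPM to 40.4 CPM in AL, Serpina1e steps up from 43.6 CPM through 289 CPM to 3670 CPM, and Mki67 has a few libraries of CR-night-2h far above the rest, up to 47.5 CPM.

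Other genes were lower over the day. Gnmt, which uses up methyl groups of S-adenosylmethionine, ran from 663 to 1440 CPM (median 957) against 1140 to 2080 CPM (median 1470), with AL at 587 to 1550 CPM (−0.60 ± 0.07, adjusted p = 9.2e-08), and 20 libraries of CR-night-2h lay below all of CR-night-12h. It was the 1 called of 29 amino acid catabolism genes, at the edge of the fold of 1.5, and without 8A, 12A and 24B the fold fell short of it (−0.57, adjusted p = 1.16e-07). Enho, which encodes the peptide adropin, ran from 1.16 to 9.79 CPM (median 3) against 2.93 to 25.1 CPM (median 8.3), lower by −1.29 ± 0.18 (adjusted p = 5.8e-06). Of the 25 cholesterol genes, Fdps (−0.68), Msmo1 (−0.64) and Mvk (−0.59) were lower over the day, with a list median of −0.35. Without 8A, 12A and 24B all 3 calls ended (Mvk −0.56, adjusted p = 9.93e-05, short of the fold of 1.5), and without 12B 6 genes were called. The median differences of glycolysis (−0.10, 14 genes), gluconeogenesis (−0.0033, 12 genes), the urea cycle (−0.072, 7 genes) and nuclear-encoded respiration (−0.066, 16 genes) lay near that of all genes tested.

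Interferon-stimulated genes were higher over the day in 4 of 18, against 1.51% of all genes tested. Their median was 0.37, against 0.016 over all genes tested. Ifi44 at clock hour 0 stood at 5.6, 24.2, 17.4 and 7.87 CPM against 3.41, 3.8, 4.04 and 4.6 CPM (1.78 ± 0.34, adjusted p = 0.0092), with separate ranges, and over the day it was higher by 0.73 ± 0.15 (adjusted p = 0.0005). Rsad2, an antiviral enzyme, was higher by 1.04 over the day and by 0.60 without the 4 libraries (adjusted p = 0.052), where 1 of the 18 was called. List members called higher then went from 1 to 6 at clock hour 0 and from 0 to 4 at clock hour 16. Over all genes tested they went from 22 to 69 and from 30 to 145. At clock hours 8 and 12, 1 member was then lower at each. Members with a rhythm that differed went from 3 to 8.

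Cell-cycle genes were higher over the day in 6 of 12, against 1.51% of all genes tested. Their median was 1.02, and 0.27 without 8A, 12A and 24B. Those libraries were set apart by their high cell-cycle, stellate and Kupffer cell sums, though some libraries that were kept also had high cell-cycle or Kupffer cell sums. Falls of such genes without them therefore followed from the choice and test nothing. Mki67, a proliferation marker, ran from 0.463 to 47.5 CPM (median 2.12) in CR-night-2h, from 0.344 to 6.86 CPM (median 0.996) in CR-night-12h and from 1.12 to 5.06 CPM (median 1.89) in AL (2.20 ± 0.50, adjusted p = 0.0023, and 0.91 without the 4 libraries, adjusted p = 0.047). Top2a fell to 0.42 without them (adjusted p = 0.46) and Cdkn1a to 0.55 (adjusted p = 0.21), and 2 of 11 cell-cycle genes tested were called. Calls that ended without the 4 included the immediate early genes Atf3 (1.60 over the day, 0.46 without the 4, adjusted p = 0.19) and Klf6 (0.60 and 0.18, adjusted p = 0.14), and the stellate cell collagens Col1a1 (1.00 and 0.11, adjusted p = 0.78) and Col3a1 (0.74 and 0.19, adjusted p = 0.42). Among macrophage and Kupffer cell markers, 1 of 12 was called, Cd68 (0.65), with a list median of 0.30 against 0.016 over all genes tested. At single clock hours that median ran from 0.21 to 0.50. The median of 9 hepatocyte markers was −0.075. Whether cell makeup had a part in the other differences was not tested.

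The same contrast was then set against that at 19 months and that under day feeding, each from its own libraries. Of the 246 genes called over the day at 6 months, 189 had the same sign at 19 months and 11 were also called there, where 16 genes were higher and 5 lower in all. A difference between the ages was called for 4 of 12364 genes (0.0324%), while 1575 (12.74%) had an unadjusted p under 0.05. With day feeding at 6 months, 191 of the 246 had the same sign and 15 were also called, and 265 of 11940 genes (2.22%) had a difference over the day that differed between night and day feeding. In Enho the contrast was −1.29 on the log2 scale under night feeding and 0.21 under day feeding (difference −1.50, adjusted p = 1.3e-05). In Mup20 it was −1.94 and −0.30 (difference −1.64, adjusted p = 0.031), and in Serpina1e −2.62 and −0.59 (difference −2.03, adjusted p = 0.042).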

How the data were processed

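RNA from 1 liver per library was sequenced, and the values used here are the raw counts per gene that the authors deposited, 1 table per group. Per the submitters' processing notes, FastQC, cutadapt, STAR and featureCounts were used, with no versions stated. No source used here names the build. Coordinates were taken from the GENCODE M21 annotation of GRCm38 for genes with the same versioned ID (83.7% of the IDs), and promoters from RefSeq by symbol. A deposited table of RPKM values was not used. The table totals, given as depth in the report, set the precision.

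The 48 libraries were fitted in R 4.3.3 with edgeR 4.0.16 (glmQLFit, robust, and glmQLFTest), with a mean for each feeding group at each of 6 clock hours, TMM factors set with the 24 AL libraries included, and the default filter of filterByExpr. Genes were called at an adjusted p (Benjamini-Hochberg over all genes tested) under 0.05 and a fold of at least 1.5, averaged over the day or at 1 clock hour, and an F test across clock hours asked whether the difference varied. Rhythms used a cosine and a sine of period 24 h. Shifts, amplitudes and their standard errors came from limma 3.58.1 (voom, delta method). A shift carries no p of its own, and the adjusted p beside it tests the rhythm as a whole. The contrasts at 19 months and under day feeding were fitted with their own libraries and compared by an interaction term. P-values measure the spread between libraries. The model was also tested on simulated counts that took their genes and dispersion from this fit.

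Named genes were the 10 called genes with the largest change over the day in each direction that changed the same way in both replicates and both days with at least 1 CPM in a group, the top 3 each way at each clock hour, the 10 with the smallest p for varying with clock hour, up to 4 per list with the smallest p over 36 gene lists and 11 cell type marker lists, the core clock genes with Gys2 and Pck1, the 5 largest and smallest ratios of amplitude among called genes, and the 5 largest differences each way between ages and between night and day feeding. Other list members named in the text were chosen after their values were seen. The lists and comparisons were chosen with earlier results of these data known. Alternatives covered normalization (also DESeq2 1.42.0), filters, the time model, days, replicates and the leaving out of libraries.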

Additional observations from a re-analysis of the deposited data

Results flagged for a closer look

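For 4 genes the contrast of CR-night-2h with CR-night-12h over the day differed between 6 and 19 months by the interaction test. Lgals3, which encodes galectin-3, differed by 1.47 ± 0.33 on the log2 scale (adjusted p = 0.045), from 1.04 at 6 months to −0.44 at 19 months. Nim1k, a kinase gene, differed by −0.95 ± 0.20 (adjusted p = 0.028), Tmem81 by −0.83 ± 0.18 (0.028) and Serpina11 by −0.60 ± 0.13 (0.028). Lgals3 is expressed by macrophages, and Kupffer cell markers were also high in 8A, 12A and 24B at 6 months. Their part in this difference was not tested.

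Between night and day feeding the largest differences of the contrast were in A1bg (3.65, from 4.14 at night to 0.48 by day, adjusted p = 0.0044) and Cyp3a44, a CYP3A gene with higher levels in females (2.46, from 0.92 to −1.54, adjusted p = 0.0012). E030018B13Rik (1.75, adjusted p = 0.0098), Pde6c (1.74, 0.00013) and Anln, which encodes a protein of the cleavage furrow (1.74, 0.0032), followed. In the opposite direction stood Serpina1e (−2.03, 0.042), Mup20 (−1.64, 0.031), Serpinb1a (−1.57, 0.00023), Enho (−1.50, 1.3e-05) and Selenbp2 (−1.46, 0.015).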

How the results depend on the processing

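Each group had 4 libraries at a clock hour, and with 12B left out CR-night-2h had 3 at clock hour 12. Leaving out 8A, 12A, 12B or 24B was chosen after seeing the data. DESeq2 size factors, TMM factors from the 48 libraries alone and the stricter filter left each count computed under them within 1.5 times its main value. Replicate letters were not treated as pairs in the main fit. Same-hour deviations correlated between −0.303 and 0.361, over 0.1 at 3 of 12 hours. Each value rests on 1 A and 1 B library per group, so whether the letters share a source of spread could not be told. With the letter as a replicate block 175 genes were higher over the day, 72 lower, and 380 differed at clock hour 12. With hour and letter as 24 pairs 140 were higher and 73 lower. Of 1108 single-gene values under all alternatives, 871 kept their sign and an adjusted p under 0.05, 237 lost that adjusted p and 0 reversed in sign. The fold of 1.5 was not applied to these values. Of the 63 genes behind them 9 kept sign and adjusted p in all settings, and without the 4 libraries 12 of 59 values lost the adjusted p. These genes were taken because they were called with all 48 libraries. Some were also chosen for the same direction in both replicates and both days. The lack of reversals therefore followed in part from that choice. The count at clock hour 12 was the highest of the 6 clock hours with all libraries but not without replicate A (8, against 28 at clock hour 20).

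Over the day, genes higher in CR-night-2h (175) numbered 34 to 48 with 1 replicate left out, 81 without 8A, 12A and 24B, 90 without these and 12B, 24 from hours 0 to 20, 46 from hours 24 to 44 and 1067 by adjusted p alone, and genes lower (71) numbered 36 to 38, 17, 42 and 1072 with a replicate left out, from each day and by adjusted p alone. Genes whose difference varied with clock hour (120) numbered 3 to 12 with 1 replicate left out, 636 without 8A, 12A and 24B, 323 without 12B, 953 without the 4, 1 and 43 from each day, 325 in a fit of all 288 libraries and 358 with DESeq2.

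Genes that differed at clock hour 0 (37) numbered 1 to 8 with 1 replicate left out, 60, 82 and 108 without 8A, 12A and 24B, without 12B and without the 4, 14 with means at each of 12 hours, 20 with no filter, and 0 and 8 from each day. In the same order of settings, clock hour 4 (4) gave 0 to 0, 36, 21 and 104, and 1 and 0 from each day. Clock hour 8 (34) gave 0 to 7, 99, 74 and 200, 3 with means at 12 hours, 4 with no filter, and 0 and 2. Clock hour 12 (388) gave 8 to 146, 631 without the 4, and 2 and 115. Clock hour 16 (53) gave 0 to 0, 125, 129 and 226, 16 with no filter, and 0 and 1. Clock hour 20 (46) gave 0 to 28, 133, 92 and 194, 7 with no filter, and 0 and 2.

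Genes cycling in CR-night-2h (4534) numbered 1807 to 2614 with 1 replicate left out and 1565 and 2755 from each day, those in CR-night-12h (3852) 1299 to 1425, 1060 and 1753, and those whose rhythm differed (378) 5 to 48, 2 and 37, with 1080 without 8A, 12A and 24B and 1127 without the 4. The median ratio of amplitudes was 1.156 without the 4 (0.9425 to 1.056 without a replicate). The median shift was −1.93 to −1.738 h without a replicate, −2.306 h without 8A, 12A and 24B, −1.806 h without 12B and −1.661 h from hours 24 to 44. Larger amplitudes (0) numbered 1 to 1 without a replicate, 7, 1 and 31 without 8A, 12A and 24B, without 12B and without the 4, and smaller ones (1) 0 to 1, with 2 and 3 in the first and last of these. Genes differing between ages (4) numbered 2 to 3 without a replicate, 8 without 12B, 2 without the 4 and 9 by adjusted p alone, and those differing between night and day feeding (265) 12 to 567 and 2790. The cause of these changes was not tested. An alternative with a replicate or a day left out holds fewer samples.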

Other observations

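The mitochondrial gene mt-Nd4l was called higher in CR-night-2h at clock hour 8 by 7.75 on the log2 scale, a value set by single libraries. It ranged from 0 to 136 CPM in CR-night-2h, from 0 to 14.8 CPM in CR-night-12h and from 0 to 574 CPM in AL, with medians of 0.478, 0.242 and 0.446 CPM, and the 136 CPM came from the library labelled hour 8 B.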
